A study of Xenopus laevis with 20 samples.

Results

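The 100 rows described here are those whose signal in Xenopus laevis animal caps given Gata5-GR lay furthest above that in uninjected caps. For every row of the array table, 4 differences in log2(signal + 16) were taken, each between a Gata5-GR array and the uninjected array with the same replicate number, and the 100 rows with the highest median difference were kept out of 15491. The choice was therefore made on the 4 Gata5-GR and 4 uninjected arrays, and what these 8 arrays show for the 100 rows is a description. The 12 arrays of the other 3 groups (Gata4-GR, Dkk1, and Gata4-GR with Dkk1) had no part in it.

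An animal cap is the ectoderm of the blastula roof, which on its own forms epidermis. The 20 arrays form 5 groups of 4 samples, and all caps were cut at stage 9 and held for 2.5 hours in cycloheximide, which stops protein synthesis, and dexamethasone. Gata4-GR and Gata5-GR are Gata proteins joined to the glucocorticoid receptor, so that they act once dexamethasone is present. Per the labels, 10 ng of each mRNA was injected into 1-cell embryos: Gata4-GR, Gata5-GR, Dkk1, or Gata4-GR together with Dkk1. The uninjected caps had both drugs and no mRNA, and no group had a control mRNA, so any effect of injection as such is part of every difference from uninjected caps. Gata4-GR+Dkk1 caps got both mRNAs at that dose, and so more mRNA in all than Gata4-GR or Dkk1 caps. Any effect of the amount of mRNA is part of their differences from those caps. The Dkk1 protein was not inducible and could act from the time of injection. The labels do not say whether same-group samples came from separate batches of embryos, so the p-values measure the spread between these samples, which may be technical.

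Gata4, Gata5 and Gata6 are zinc-finger transcription factors that bind DNA at GATA sites. In the early frog embryo they drive endoderm formation and the cardiac mesoderm, and when supplied in excess they can turn animal cap cells towards endoderm. Dkk1 is a secreted protein that binds the LRP5 and LRP6 co-receptors and so blocks canonical Wnt signalling, a signal that restrains heart formation in mesoderm. With protein synthesis stopped, a transcript can still answer a Gata protein that is already there, which is how direct targets are sought.

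No gene could be named for any of the 100 rows, so no gene role, endoderm or heart list, or sequence is given. Naming a row needs the identifier printed beside its signals, and the signals go against that pairing. Spiked bacterial control RNAs are added so that bioB is the scarcest and cre the most abundant, yet the rows listed as cre (second probe design) read below those listed as bioB on 20 of 20 arrays, with median signals of 17.1 and 7332. Over 989 genes with separate rows listed for their L and S copies, the copies' log2 signals had a Pearson correlation across genes of 0.0041. Each row is called here by its position in the table, the first being row 1. For the same reason the cap's ectoderm markers could not be read.

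The array medians lay between 59.2 and 101, and no array repeated another. Gata4-GR replicate 1 stood apart, with a mean correlation of 0.959 with the other arrays where the next lowest had 0.972. In uninjected replicate 3 the median signal of rows 1 to 9 was 51.4, against 301.1 to 525.2 on the other arrays. Counts of calls were taken without each of them, and counts of rows that were higher without Gata4-GR replicate 1 in every comparison with Gata4-GR, and without uninjected replicate 3 for Gata4-GR and Dkk1 against uninjected.

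The 100 rows were mostly dim. Their median signals ran from 1.75 to 1320, with a median of 14 where that of all rows was 77.5, and 58 of the 100 lay under the 16 that was added before taking logs, as did 26.7% of all rows. Below the median level of the array lay 90 of the 100. On 47 of them all 4 uninjected arrays read under 16, and on 38 all 4 Gata5-GR arrays read 16 or more. A log2 difference of such a row is held down by the added 16 and is smaller than the ratio of its signals. The standard deviation within groups had a median of 0.30 log2 over the 100 rows, 0.23 over all rows and 0.24 over the rows below the median level.

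The differences that chose the rows fell off fast. The median of the 4 differences was 7.34 for row 5066, 1.56 for row 15572 and 1.28 for row 2912, then 1.25 for row 3106, 1.21 for row 1175 and 1.19 for row 4612. It was 1.18 for row 821, 1.16 for row 11897, 1.13 for row 3104 and 0.90 for row 3567. Ranks 51 to 75 had a median of 0.50 and ranks 76 to 100 one of 0.45. The border was not a gap: rows 2243 and 14511 at ranks 99 and 100 had 0.4401 and 0.4387, and rows 14220 and 7394, just outside, had 0.4372 and 0.4371. Of the 100 rows 50 were higher in all 4 same-numbered pairs (6.96% of all rows were), 28 had all Gata5-GR arrays above all uninjected arrays (0.897%) and 64 had an unadjusted p under 0.05 (1.28%). At an adjusted p under 0.05 limma called 5 higher (0.0323% of all rows), namely rows 5066, 821, 11897, 15572 and 3106. The rule used this contrast, so nothing is read from these shares. With replicate 3 or 4 of the uninjected or replicate 2 or 4 of the Gata5-GR arrays left out, 3 of the 100 rows were called. Over all 8 arrays, each left out in turn, the count ran from 3 to 6, and the share of all rows was not taken there. A block on the replicate number added row 2912 (limma adjusted p = 0.00840), for 6 rows (0.0387% of all rows), with 70 at an unadjusted p under 0.05 (2.15%).

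How far the choice would have held on a pair of arrays that did not make it was read by choosing 100 rows from 3 pairs and looking at the pair left out. Their median difference was 0.64, 0.61, 0.59 and 0.62 in the choosing pairs, with pair 1, 2, 3 or 4 left out. In the pair left out it was 0.03, 0.07, 0.11 and 0.06, and 53, 60, 66 and 58 of the 100 rows were above 0, where 50.3%, 51.2%, 48.2% and 54.5% of all rows were. Between 48 and 56 of the rows chosen from 3 pairs were among the 100 chosen from 4. The median in the pair left out was thus a small part of that in the choosing pairs.

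**Figure D1:**
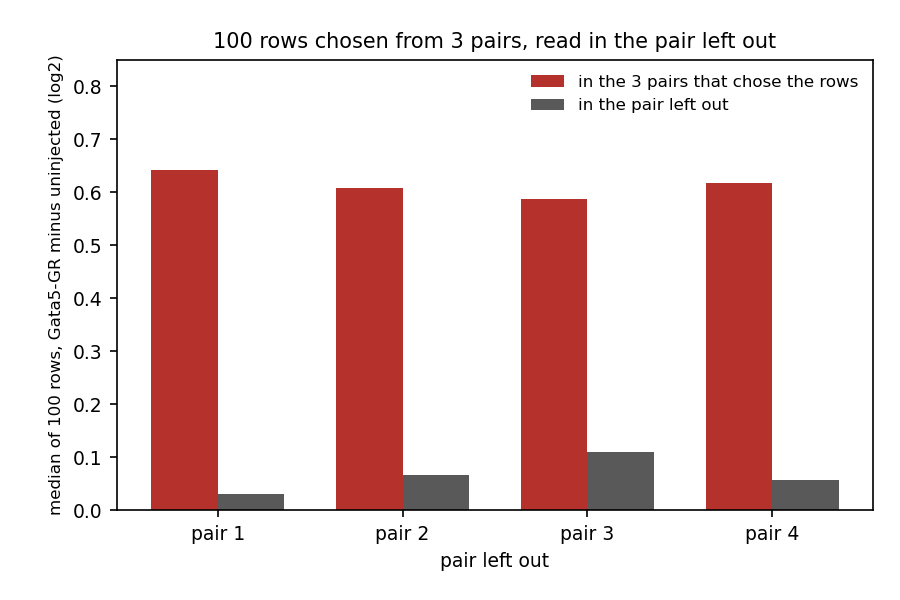
Bars give the median over 100 rows of the Gata5-GR minus uninjected difference (log2, vertical axis from 0), red in the 3 pairs that chose the rows and grey in the pair left out, for each pair left out (horizontal axis). The red bars stand between 0.59 and 0.64 and the grey bars between 0.03 and 0.11.

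On the arrays that had no part in the choice, the 100 rows as a set read higher in the groups with a Gata mRNA than in Dkk1 caps. Dkk1 caps were the only group there without a Gata mRNA. The median over the 100 rows of the normalized log2 level was 4.86 ± 0.02 (SD, n = 4) in Dkk1 caps and 5.01 ± 0.06 in Gata4-GR+Dkk1 caps. In Gata4-GR caps it was 5.07 ± 0.10. It had been 4.65 ± 0.04 in the uninjected and 5.20 ± 0.07 in the Gata5-GR caps that chose the rows. No Dkk1 array reached the lowest Gata4-GR+Dkk1 or Gata4-GR array: the Dkk1 arrays ran from 4.83 to 4.88, the Gata4-GR+Dkk1 arrays from 4.97 to 5.10 and the Gata4-GR arrays from 4.93 to 5.15. The uninjected arrays, at 4.61 to 4.70, lay below every Dkk1 array, but the choice took rows that read low there, so this is a description.

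**Figure D2:**
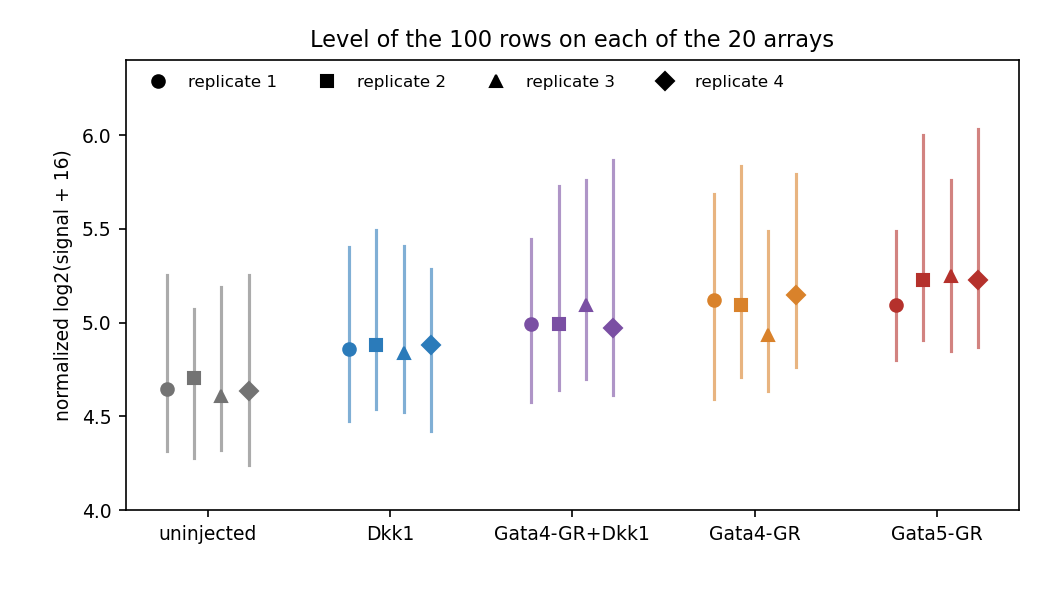
Each symbol is the median of the 100 rows on 1 array and each line runs from their lower to their upper quartile, as normalized log2(signal + 16) on the vertical axis, by group on the horizontal axis. The uninjected arrays lie between 4.61 and 4.70, the Dkk1 arrays between 4.83 and 4.88, and all 12 arrays with a Gata mRNA at 4.93 or above; the uninjected and Gata5-GR arrays chose the rows.

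The main comparison on unused arrays set Gata4-GR+Dkk1 against Dkk1, that is, Gata4 beside an inhibitor of Wnt signalling. Whether Wnt signalling was blocked could not be read. The Gata4-GR+Dkk1 caps also got more mRNA in all, which cannot be told apart from Gata4 here. The fitted difference was above 0 in 72 of the 100 rows (49.1% of all rows), and its median was 0.16 against -0.0021 over all rows. The median was above 0 in each pair of same-numbered arrays, at 0.16, 0.11, 0.19 and 0.20 for pairs 1 to 4. All 4 Gata4-GR+Dkk1 arrays lay above all 4 Dkk1 arrays in 12 of the 100 rows, where 0.678% of all rows did, and all below in 2, where 0.691% did. Counted by pairs, 26 rows were higher in all 4 (6.34% of all rows) and 3 were lower in all 4 (5.82% of all rows). Restricting the background to the rows below the median level, which hold 90 of the 100, gave 11 of those 90 lying wholly above, against 1.01% of the dim rows. Of the 90, 21 were higher in all 4 pairs (6.46% of the dim rows), and 15 were higher at an unadjusted p under 0.05 (2.01%). That background was added after the values were seen.

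By limma over all rows, 2 of the 100 rows were called higher in Gata4-GR+Dkk1 than in Dkk1 caps (0.0129% of all rows) and 0 were called lower (0%). Limma estimated the spread of a row over all 20 arrays, here and in the other comparisons, unless arrays were left out. The p-values on unused arrays therefore also draw on the 8 arrays that chose the rows, and are not independent of the choice. At an unadjusted p under 0.05, 16 were higher (1.07% of all rows) and 2 lower (1.13%). The same-numbered arrays of both groups deviated together, and a block on the replicate number gave 3 rows called higher (0.0258% of all rows), row 2207 being added. Under that block 21 rows were higher at an unadjusted p under 0.05, while the share of all rows went from 1.07% to 1.84%. The count of calls was 1 when replicate 1, 2 or 4 of Dkk1 or replicate 1, 3 or 4 of Gata4-GR+Dkk1 was left out, and 0 when only the arrays of both groups were fitted. The share of all rows was not taken for these counts. The rows lying wholly above numbered 13 to 16 when any 1 of the 8 arrays was left out. With fewer arrays this is easier to meet, and the share of all rows was not taken there, so the rise is not read.

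Row 5066 was the row with the largest change. In Dkk1 caps its deposited signals were 30.8, 91.4, 45.0 and 198 in replicates 1 to 4, and in Gata4-GR+Dkk1 caps 1430, 1417, 868.4 and 2124. In Gata4-GR caps they were 1710, 2800, 1864 and 6272, in Gata5-GR caps 1223, 4912, 1898 and 5421, and in uninjected caps 2.3, 1.3, 2.7 and 1.8. The 3 groups with a Gata mRNA therefore overlapped one another and lay wholly above Dkk1, which lay wholly above uninjected. The Gata5-GR and uninjected arrays chose the row, so their place in this order is a description. In each of the Gata4-GR, Gata5-GR and Dkk1 groups replicate 4 read highest, then 2, then 3, then 1, while in the uninjected group the order was 3, 1, 4, 2 and in Gata4-GR+Dkk1 it was 4, 1, 2, 3. The log2 difference of Gata4-GR+Dkk1 and Dkk1 was 3.88 (SE 0.47, limma adjusted p = 0.00147), with all 4 pairs higher; fitted on these 8 arrays by themselves, it had a limma adjusted p of 0.0504. Whether the row reads an injected mRNA or a transcript of the caps was not tested.

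Row 11897 was the other row called. Its signals were 14.8, 15.9, 24.6 and 17.4 in Dkk1 caps and 75.2, 32.0, 53.4 and 70.0 in Gata4-GR+Dkk1 caps. They were 17.7, 15.8, 17.5 and 28.9 in uninjected caps, 70.0, 45.6, 83.0 and 117 in Gata4-GR caps, and 50.3, 52.2, 58.1 and 75.8 in Gata5-GR caps. Every array with a Gata mRNA lay above every array without one, and the 2 groups without one overlapped. The Gata5-GR and uninjected arrays among them chose the row, so their part in this is a description. The log2 difference of Gata4-GR+Dkk1 and Dkk1 was 1.06 (SE 0.16, limma adjusted p = 0.0178), and all 4 pairs were higher. The call ended in each of the 6 cases named above where 1 array was left out, with adjusted p-values of 0.0742 to 0.140 and log2 differences of 0.98 to 1.08. Scaling the arrays to a common trimmed mean gave a limma adjusted p of 0.0565, leaving the arrays unscaled 0.557, and adding 64 in place of 16 0.106. Under the block it was 6.83e-04.

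Row 4612 was steady across the groups with a Gata mRNA but did not pass the test. Its signals were 8.7, 1.0, 5.3 and 1.5 in Dkk1 caps and 18.9, 21.4, 26.0 and 69.3 in Gata4-GR+Dkk1 caps, with 20.5, 31.1, 32.9 and 64.1 in Gata4-GR caps. Uninjected caps read 6.9, 0.7, 4.5 and 5.8 and Gata5-GR caps 13.3, 27.9, 25.8 and 53.1, so here too no array with a Gata mRNA reached down to one without. The uninjected and Gata5-GR arrays chose this row as well, and their part in this is a description. Replicate 4 was the highest in each of the 3 Gata groups. The log2 difference of Gata4-GR+Dkk1 and Dkk1 was 1.25 (SE 0.25, limma adjusted p = 0.238), and all 4 pairs were higher.

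Row 2207, only at rank 63 in the choice, had one of the larger differences on the unused arrays. It read 9.4, 13.9, 14.8 and 11.3 in Dkk1 caps, 40.3, 41.0, 29.7 and 46.1 in Gata4-GR+Dkk1 caps and 50.6, 38.6, 41.7 and 57.6 in Gata4-GR caps, with no overlap between Dkk1 and either of the others. Uninjected caps read 19.5, 12.6, 26.8 and 35.9, and Gata5-GR caps 18.7, 33.2, 35.4 and 65.8, which overlap. The Gata4-GR+Dkk1 and Dkk1 groups differed by 0.97 on the log2 scale (SE 0.17, limma adjusted p = 0.111, under the block 0.0376), all 4 pairs being higher.

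**Figure D3:**
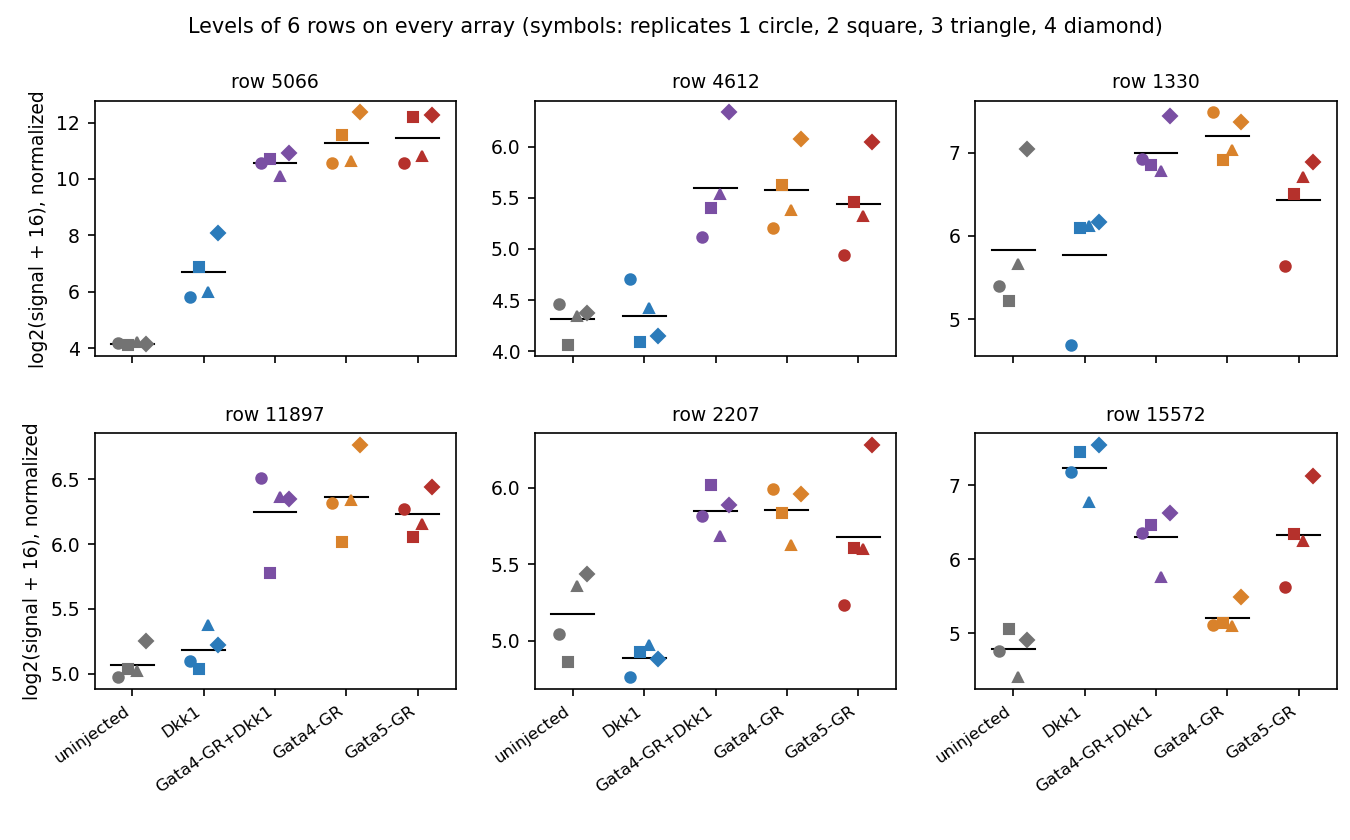
Normalized log2(signal + 16) of rows 5066, 4612, 1330, 11897, 2207 and 15572 on every array (vertical axes, which differ in scale and do not start at 0), by group; symbols are single arrays and bars the group means. In row 11897 the 12 arrays with a Gata mRNA lie above the 8 without, while row 15572 is highest in Dkk1 caps. The uninjected and Gata5-GR arrays chose the 100 rows. Those shown were picked from the 100 by calls against Dkk1, with or without the block, and row 1330 by its Gata4-GR+Dkk1 minus Dkk1 difference. The Dkk1, Gata4-GR and Gata4-GR+Dkk1 arrays thus picked what is shown.

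The other rows lying wholly above in Gata4-GR+Dkk1 were 1330, 548, 3618, 1175, 3567, 821, 1587 and 3389, and none of them was called (limma adjusted p = 1.00 for each). Row 1330 read 8.4, 47.1, 51.6 and 43.5 in Dkk1 caps against 106, 84.5, 75.5 and 169 in Gata4-GR+Dkk1 caps, a log2 difference of 1.23 (SE 0.37). Its Gata4-GR arrays, at 98 to 190.0, lay above all Gata5-GR arrays, at 28.7 to 109, by normalized level. Row 3618 read 1.7 to 10 in Dkk1 caps and 14.5 to 25.1 in Gata4-GR+Dkk1 caps, a log2 difference of 0.78 (SE 0.21). Row 1175 read 3.7 to 11 and 13.7 to 54.4, and row 3567 read 2.0 to 19.5 and 21.5 to 41.0. For row 1587 the ranges were 2.5 to 14.1 and 15.2 to 26.6, and for row 821 they were 0.7 to 4.0 and 8.4 to 17. Row 548 read 17.3 to 41.0 in Dkk1 caps and 41.4 to 139 in Gata4-GR+Dkk1 caps, and its Gata5-GR signals were spread from 17.2 in replicate 1 to 276 in replicate 4. Row 3389, which was named after its values were seen, had a log2 difference of 0.51 (SE 0.18).

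Where the choice had found the largest rises, the unused arrays differed most. At ranks 1 to 25 the median log2 difference of Gata4-GR+Dkk1 and Dkk1 was 0.37, and 10 of the 25 rows lay wholly above. At ranks 26 to 50, 51 to 75 and 76 to 100 the median was 0.10, 0.14 and 0.10, and 0, 2 and 0 of 25 rows lay wholly above. Over all rows the median was -0.0021 and 0.678% lay wholly above, as did 1.01% of the rows below the median level. Across the 99 rows without row 5066, the difference that chose a row and its difference on the unused arrays had a Pearson correlation of 0.225 and a Spearman correlation of 0.204. With row 5066 (n = 100 rows) the Pearson correlation was 0.732 and the Spearman 0.227, so the former rested on 1 row. These are descriptions across rows, which share arrays and replicate numbers and are not independent.

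**Figure D4:**
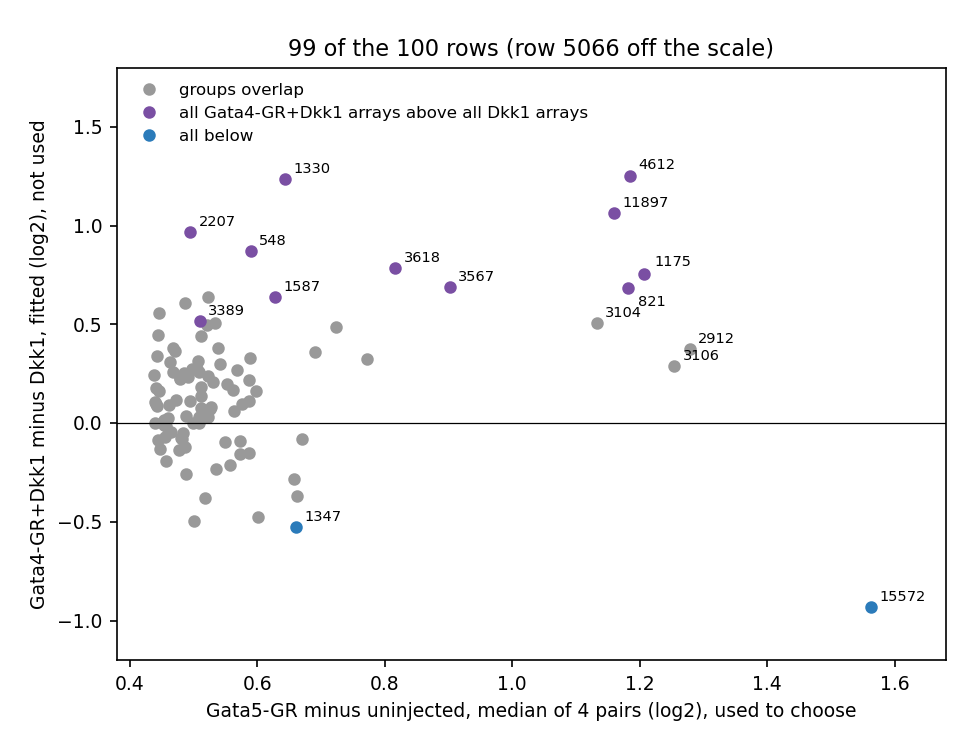
Each point is 1 of 99 rows: the horizontal axis is the median Gata5-GR minus uninjected difference that chose it (log2) and the vertical axis its fitted Gata4-GR+Dkk1 minus Dkk1 difference (log2) on arrays not used. Purple points have all 4 Gata4-GR+Dkk1 arrays above all 4 Dkk1 arrays, blue points the reverse, and row 5066 (7.34 and 3.88) is off the scale; rows 4612, 1330 and 11897 are the highest and row 15572 the lowest.

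In most of the 100 rows the Gata4-GR+Dkk1 and Dkk1 arrays overlapped, and some rows read lower with Gata4-GR+Dkk1. Row 15572, second in the choice, was highest in caps given Dkk1 with no Gata: its signals there were 97.2, 142.9, 89.6 and 132, against 66.3, 60.7, 31.6 and 88.8 in Gata4-GR+Dkk1 caps and 18, 18.1, 22.7 and 35.9 in Gata4-GR caps. Uninjected caps read 12.6, 16.1, 5.5 and 17.1 and Gata5-GR caps 28.4, 68.8, 63.4 and 131. Each injected group lay wholly above the uninjected one, and Gata4-GR and Gata4-GR+Dkk1 lay wholly below Dkk1. The uninjected arrays were part of the choice, which took rows that read low there. The difference of Gata4-GR+Dkk1 and Dkk1 was -0.93 (SE 0.25, limma adjusted p = 1.00), lower in 4 of 4 pairs. Between Gata4-GR and Dkk1 it was -2.03 (SE 0.25, limma adjusted p = 9.55e-04), the only 1 of the 100 rows called lower there (0.0129% of all rows).

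Row 1347 also lay wholly lower in Gata4-GR+Dkk1 caps, which read 2.3, 6.3, 10.7 and 7.9 where Dkk1 caps read 13.9, 13.1, 23.9 and 12.6, a log2 difference of -0.53 (SE 0.19, limma adjusted p = 1.00). The lowest differences after these were -0.50 in row 9404, -0.48 in row 15551 and -0.38 in row 1541, each lower in 3 of 4 pairs.

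A second comparison without any array of the choice set Gata4-GR against Dkk1. Gata4-GR caps got Gata4-GR and no Dkk1, and Dkk1 caps the reverse. An effect of either mRNA is part of the difference, and they cannot be told apart here. It shares the Dkk1 arrays with the main comparison, so the values stand side by side and neither bears out the other. The difference was above 0 in 68 of the 100 rows (49.5% of all rows) with a median of 0.16, and the pairs gave 0.16, 0.16, 0.07 and 0.29. All 4 Gata4-GR arrays lay above all 4 Dkk1 arrays in 14 rows (0.962% of all rows) and below in 3 (1.13%). In all 4 pairs 29 rows were higher (8.33%) and 6 lower (8.02%), and at an unadjusted p under 0.05 there were 24 higher (2.52%) and 2 lower (2.10%). Of the 90 dim rows 13 lay wholly above (1.30% of all dim rows), 26 were higher in all pairs (7.85%) and 22 were higher at an unadjusted p under 0.05 (3.15%). Without Gata4-GR replicate 1, the array that stood apart, 16 rows lay wholly above (1.92% of all rows, from 3 arrays against 4), 34 were higher in the 3 pairs left (15%), 22 were higher at an unadjusted p under 0.05 (1.81%) and 74 were above 0 (49.9%). Limma called 2 of the rows higher (0.0129% of all rows). They were row 5066, at 4.59 (SE 0.47, limma adjusted p = 1.10e-04), and row 11897, at 1.18 (SE 0.16, limma adjusted p = 0.00217). Under the block on replicate number 4 were called (0.0387% of all rows), the added ones being row 2207 (limma adjusted p = 0.0242) and row 4612 (limma adjusted p = 0.0475). At an unadjusted p under 0.05 the block gave 27 rows higher, where the share of all rows grew to 5.41%, so the 100 rows stood less far from all rows than without it.

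**Figure D5:**
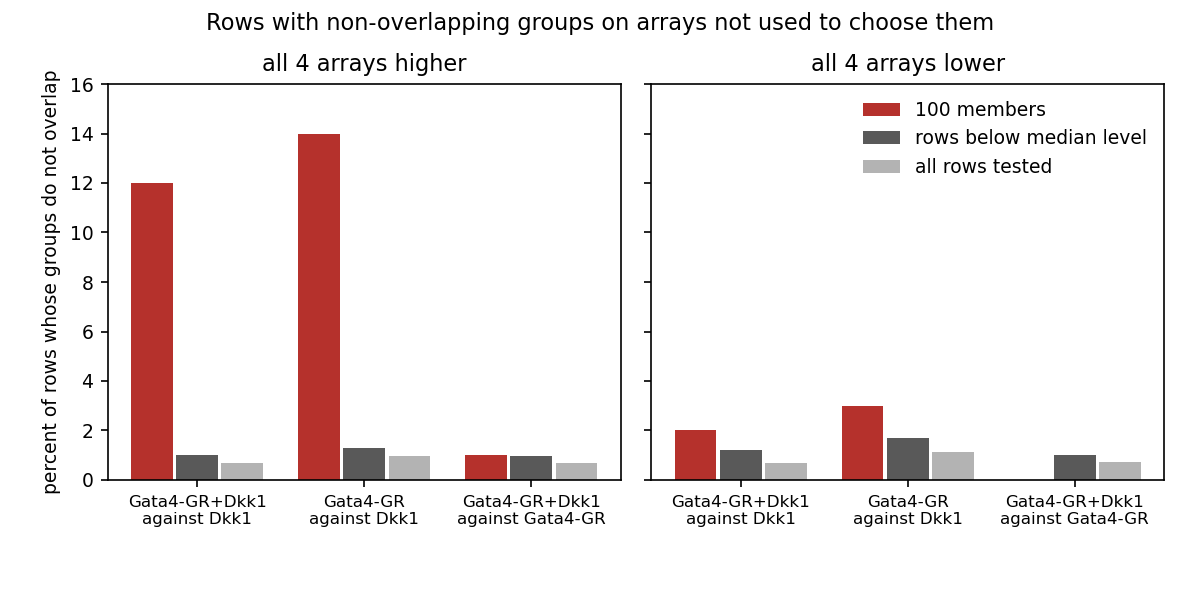
Bars give the percent of rows whose 4 arrays of one group all lie above (left) or all below (right) the 4 arrays of the other, for 3 comparisons on arrays not used to choose the rows; red is the 100 rows, dark grey the rows below the median level and light grey all rows. Red stands at 12% and 14% on the left for the comparisons with Dkk1 and at 1% for Gata4-GR+Dkk1 against Gata4-GR.

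Gata4-GR+Dkk1 and Gata4-GR caps, which differ by Dkk1 and by the amount of mRNA, were compared on arrays of which none chose the rows. Of the 100, limma called 0 different between Gata4-GR+Dkk1 and Gata4-GR in either direction, where 0.00646% of all rows were called higher and 0% lower. At an unadjusted p under 0.05 there were 3 higher (1.36% of all rows) and 3 lower (1.65%), shares that lie near those of all rows. The median difference was -0.02, and 46 of the 100 rows were above 0 (49.7% of all rows). Row 15572 was the 1 row lying wholly above (0.704% of all rows), with 1.09 (SE 0.25, limma adjusted p = 1.00), and 0 lay wholly below (0.723%). Counted by pairs, 5 rows were higher in all 4 (6.47%) and 7 lower (6.84%). Without Gata4-GR replicate 1, 1 row lay wholly above (1.58% of all rows), 15 were higher in the 3 pairs left (13%), 2 were higher at an unadjusted p under 0.05 (0.955%) and 46 were above 0 (50%). Under the block 4 were higher at an unadjusted p under 0.05 (3.12%). For row 11897 the difference was -0.11 (SE 0.16), for row 4612 it was 0.02 (SE 0.25), and for row 5066 it was -0.70 (SE 0.47). These errors leave room for moderate differences, and no call does not mean equal levels.

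Among the 3 groups left out of the choice, Dkk1 had the lowest mean in 54 of the 100 rows (31.5% of all rows), Gata4-GR in 27 (38.8%) and Gata4-GR+Dkk1 in 19 (29.7%). Over the 12 arrays of these groups, the groups took a median of 21.3% of a row's sum of squares in the 100 rows and 11% in all rows, and 12.6% in the rows below the median level. The replicate numbers took 26.9% in the 100 rows, 42.5% in all rows and 33.8% in the rows below the median level. The residual took 40.7%, 39.4% and 45.6%. Spread between arrays gives the groups some share even where group means do not differ, and a lower replicate share leaves more for the groups.

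Dkk1 caps also differed from uninjected caps in the 100 rows. This comparison shares the uninjected arrays with the choice, which took rows that read low there, so its values are a description. The median difference was 0.14, 78 of the 100 rows were above 0 (50.9% of all rows) and 7 lay wholly above (0.749%), with 0 wholly below (0.826%). In all 4 pairs 19 were higher (7.08%) and 2 lower (7.33%), and at an unadjusted p under 0.05 there were 14 higher (1.30%) and 0 lower (1.27%), and under the block 18 higher (2.34%). Without uninjected replicate 3, 11 lay wholly above (1.70% of all rows), 26 were higher in the 3 pairs left (13.7%), 11 were higher at an unadjusted p under 0.05 (1.17%) and 75 were above 0 (52.2%). Row 15572 was called, at 2.45 (SE 0.25, limma adjusted p = 1.29e-04), and it was the 1 row of the 100 called higher (0.0129% of all rows). Row 5066, at 2.53 (SE 0.47), missed the threshold (limma adjusted p = 0.167) and passed it under the block (limma adjusted p = 0.00141), which called 2 of the 100 (0.0194% of all rows). Without any 1 of the 8 arrays the count stayed at 1. Row 15278 came next, reading 15.1 to 18.8 on 3 uninjected arrays and 7.1 on the other, and 21.9 to 27.5 in Dkk1 caps, a log2 difference of 0.64 (SE 0.18, limma adjusted p = 1.00). Rows 1347 and 9404 followed with 0.64 and 0.53. At the other end were rows 548 (-0.35), 2207 (-0.29), 1844 (-0.25), 2239 (-0.16) and 1587 (-0.13). Of these, row 1844 read 217.6 in uninjected replicate 4 and 2.1 to 12.4 on the other uninjected arrays.

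Gata4-GR against uninjected shares the same controls. Its median difference over the 100 rows was 0.32, beside 0.45 for Gata5-GR by the same fit, and limma called 2 rows higher (0.0129% of all rows), row 5066 at 7.12 (SE 0.47, limma adjusted p = 6.26e-08) and row 11897 at 1.29 (SE 0.16, limma adjusted p = 0.00114). The count was 2 without any 1 of the 8 arrays too. By the same fit Gata5-GR gave 7.30 and 1.16 for these rows. Of the 100 rows 94 were above 0 (49.7% of all rows), 21 lay wholly above (1.13%) and 0 wholly below (0.800%). In all 4 pairs 37 were higher (7.23%) and 0 lower (7.03%), and at an unadjusted p under 0.05 there were 36 higher (2.58%) and 0 lower (2.03%), and under the block 42 higher (5.69%). Same-numbered arrays did not deviate together in every pair here (lowest correlation 0.0599), so pairs and block rest on the replicate numbers alone. Leaving out Gata4-GR replicate 1 gave 26 rows wholly above (1.99%), 47 higher in the 3 pairs left (13.2%), 31 higher at an unadjusted p under 0.05 (1.59%) and 95 above 0 (50.1%). Leaving out uninjected replicate 3 gave 25 (2.05%), 44 (13.2%), 30 (2.08%) and 88 (51.3%) by the same measures.

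Between Gata5-GR and Gata4-GR caps, a comparison that uses the Gata5-GR arrays of the choice, limma called 0 of the 100 rows higher (0% of all rows) and 0 lower (0%), with 14 higher (1.64% of all rows) and 0 lower (1.84%) at an unadjusted p under 0.05. Above 0 were 74 (51.2%), wholly above 7 (0.891%) and wholly below 1 (0.884%), which was row 1330. In all 4 pairs 22 were higher (7.24%) and 2 lower (6.68%), and under the block 17 were higher at an unadjusted p under 0.05 (4.09%). Without Gata4-GR replicate 1, 10 lay wholly above (1.64% of all rows), 29 were higher in the 3 pairs left (13.7%), 7 were higher at an unadjusted p under 0.05 (1.05%) and 74 were above 0 (50.8%). The largest differences were 1.12 in row 15572, 0.92 in row 3104, 0.92 in row 1607, 0.64 in row 821 and 0.62 in row 2912. Row 1607 (SE 0.58) read 133.9, 98.8, 79.9 and 29.8 in Gata5-GR caps and 6.1, 67.2, 56.6 and 46.5 in Gata4-GR caps, which overlap. Its 6.1 was in Gata4-GR replicate 1, the array that stood apart. Row 3104 read 18.8, 51.8, 34.1 and 22.5 in Gata5-GR caps and 10.3, 2.7, 15.4 and 8.9 in Gata4-GR caps, which do not overlap. In row 821 the Gata5-GR arrays, at 18.9 to 37.1, overlapped the Gata4-GR arrays, at 5.2 to 29.1. Row 2912 read 25.1, 50.4, 54.0 and 21.7 with Gata5-GR and 7.7, 31.8, 17.2 and 23.8 with Gata4-GR. Row 3106 read 17.8, 55.7, 29.2 and 38.9 with Gata5-GR and 7.1, 17.9, 21.9 and 30.6 with Gata4-GR. All of these were chosen on their Gata5-GR arrays, which raises the Gata5-GR side.

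The position of the 100 rows in the table was not even. With the table cut into 5 equal stretches, rows 121 to 3219 held 37 of them, rows 3220 to 6317 held 29 and rows 6318 to 9415 held 3. The last stretches, rows 9416 to 12513 and 12514 to 15611, held 13 and 18. Rows below the median level made up 43.7%, 43.3%, 39.4%, 49.7% and 73.9% of the stretches, so the stretch with most dim rows was not the one with most of the 100. Rows 2206 and 2207, 3104 and 3106, and 3341 and 3342 stand next to each other or 1 row apart. What the order of the table follows was not given in the sources used here.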

How the data were processed

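RNA from 20 Xenopus laevis samples was read on single-colour arrays. The deposited table gives the intensity of each row on a linear scale, from 0.1 to 10929. Per the labels, biotinylated cRNA was made from 10 ug of total RNA by the maker's standard protocol, and how probes were summarised was not given in the sources used here. Trimmed means per array ran from 143 to 240, so arrays had not been brought to one level. Leaving out 120 listed control rows rests on the listed identifiers; 16 was added, log2 was taken and arrays were quantile normalized. R 4.3.3 and limma 3.58.1 gave the tests: group means on 20 arrays, moderated and two-sided, with p-values adjusted by Benjamini-Hochberg over 15491 rows and calls at 0.05. Groups and replicate numbers came from sample titles. The number of arrays limits the precision.

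The 100 rows, the rules for naming rows and the comparisons were chosen with earlier results of these data known. Rows named are the top 10 of the choice, those called in any of 7 comparisons, the 10 largest differences between Gata4-GR+Dkk1 and Dkk1 that were higher in 4 of 4 pairs, the 5 lowest there, the 5 largest and 5 smallest for Dkk1 against uninjected, the 5 largest for Gata5-GR against Gata4-GR, and ranks 99 to 102. Same-numbered arrays deviated together with a correlation of at least 0.1 in every pair of 6 comparisons (0.379 or more for Gata4-GR+Dkk1 against Dkk1), which the pairing rests on, as the labels give only the numbers. For Gata4-GR against uninjected the lowest was 0.0599, under that bound, so the pairing is not borne out for its counts by pairs and under the block. The fit and the choice of rows were tried on simulated data. For the choice the simulated rises were larger than those of all the 100 rows but row 5066. How well the choice finds smaller rises was not tested. Alternatives were other added constants, scalings, filters on dim rows, the arrays fitted, the replicate number as a block, single arrays left out, and other choices of rows. The planned marker lists were not used, because no row could be named.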

Additional observations from a re-analysis of the deposited data

Results flagged for a closer look

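An array far from the rest of its group was looked for in 75 groups of 4, and 3 turned up where about 3.75 would by chance. These groups did not take in every row named here. One was row 15572, where Gata4-GR replicate 4 had a normalized log2 level of 5.49, above the other Gata4-GR arrays. In row 1330 Dkk1 replicate 1 lay at 4.69, below the other Dkk1 arrays. The median of the 100 rows was lowest among the Gata5-GR arrays in replicate 1, at 5.09. Some named rows that were not looked at also had an uninjected array far from the rest. Row 1347 lay at 5.04 in replicate 3 and at 4.17 to 4.28 on the other uninjected arrays. Row 15278 lay at 4.51 in replicate 3 and at 4.93 to 4.99 on the others. Row 1844 lay at 7.54 in replicate 4 and at 4.18 to 4.75 on the others.

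Row 15572 read higher with Gata4-GR in 4 of 4 pairs without Dkk1 (against uninjected caps) and lower in 4 of 4 pairs with Dkk1 (against Dkk1 caps). The difference between these effects was -1.36 on the log2 scale with a standard error of 0.36, and limma did not call it (adjusted p = 1.00). Opposite directions were looked for in 23 rows. The largest difference between the effects among them was -3.23 in row 5066 (SE 0.66, limma adjusted p = 0.985), which read higher with Gata4-GR in 4 of 4 pairs both ways. In row 1347 it was -0.91 (SE 0.27), with 3 of 4 pairs higher without Dkk1 and 0 of 4 with it. The uninjected caps were part of the choice, which took rows that read low there. That raises the effect without Dkk1 and pushes these differences between the effects down, so they are descriptions.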

How the results depend on the processing

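The 100 rows themselves depended on the scale: choosing with 64 or 1 added gave 42 and 45 of the same rows, and choosing by the fitted difference 66. In the comparison of Gata4-GR+Dkk1 with Dkk1 the count of calls was 1 with 64 added, with no normalization, with trimmed-mean scaling and with rows above the 50th percentile, and 0 with only the compared arrays, which are fewer. The median difference of the rows was 0.32 with 1 added, 0.0657 with 64 added, and 0.31 and 0.32 over the 47 and 10 rows above the 25th and 50th percentiles. It was 0.21 for 50 rows, 0.0545 for 200, 0.0637 for rows chosen with 64 added and 0.10 for rows chosen by the fitted difference. Rows higher in all pairs numbered 16 of 50 (6.34% of all rows). For counts above the 50th percentile, the share of all rows was not taken. Nor was it taken for counts of calls with other added constants, other scalings, rows above the 25th percentile or only the compared arrays. Above the 50th percentile, where 10 of the 100 rows were left, 1 lay wholly above, 5 were higher in all pairs and 1 had an unadjusted p under 0.05; calls were 1 for Gata4-GR against Dkk1, 1 for Gata5-GR and 1 for Gata4-GR against uninjected, and 0 for Dkk1. Gata5-GR calls were 3 with 64 added, above the 25th percentile or with only the compared arrays, and 2 without normalization. With only the compared arrays, Gata4-GR had 1 call against Dkk1 and 1 against uninjected. With the replicate block, Gata4-GR against Dkk1 had 4 calls (0.0387% of all rows) and Dkk1 against uninjected 2 (0.0194%). The latter was also 2 with 1 added. For rows chosen by the fitted difference it was 2 too (0.0129% of all rows), and Gata4-GR+Dkk1 against Gata4-GR had 1 call (0.00646%). Other counts of calls among the 100 rows under the block, also without Gata4-GR replicate 1, stayed within 1.5 times. The share of all rows higher at an unadjusted p under 0.05 did not: it went from 1.07% to 1.84% for Gata4-GR+Dkk1 against Dkk1 and from 2.52% to 5.41% for Gata4-GR against Dkk1, where counts among the 100 rows went from 16 to 21 and from 24 to 27. Leaving out single arrays gave 1 to 2 calls for Gata4-GR+Dkk1 against Dkk1, 3 to 6 for Gata5-GR, a median of 0.13 to 0.20, 13 to 16 rows wholly above, 31 to 36 higher in all remaining pairs and 11 to 21 at an unadjusted p under 0.05. Lying wholly above or being higher in all pairs is easier to meet with fewer arrays. Shares of all rows were not taken beside these counts. Of the 235 alternative values of the counts and the median, 42 left their bounds, which for counts were 1.5 times. A count cannot reverse, and the median did not change sign. Otherwise the cause was not tested.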
